A study of Homo sapiens with 10 samples.

Results

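The genes described here encode telomerase, the shelterin complex that coats chromosome ends, and a telomere helicase. They are the 9 symbols TERT, DKC1, NOP10, TERF1, TERF2, POT1, TINF2, ACD and RTEL1, taken by gene symbol from the authors' annotation and joined by gene ID to the counts, out of 32152 genes in all. All 9 were found, and all 9 passed the filter on low counts, as did 19163 genes. RTEL1 belongs to neither complex and is included as a telomere maintenance gene. The cells were the human embryonic stem cell line WAe009-A (H9), kept under pluripotent conditions on Matrigel, and polyA RNA was sequenced. There were 5 libraries of KCNH2-/- cells, titled 57-KO in the labels, grown in mTeSR Plus and called KO below, and 5 of isogenic wild-type (WT) cells, grown in TeSR-E8. The labels call the edited cells a knockout in the titles and a knockdown in the genotype field. The effects of medium and genotype cannot be told apart, and the labels say neither what the 57 stands for nor whether the KO line is a single clone. The labels give no separate cultures for the replicates, so a p-value measures the spread between these libraries alone, and that spread may be technical.

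As background, telomerase is a reverse transcriptase that adds TTAGGG repeats to chromosome ends. Its catalytic subunit TERT copies the template of an RNA subunit, TERC, which is kept stable by the H/ACA proteins dyskerin (DKC1), NOP10, NHP2 and GAR1. Shelterin is built on the double-strand binding proteins TRF1 (TERF1) and TRF2 (TERF2), bridged by TIN2 (TINF2) to TPP1 (ACD) and the single-strand binding protein POT1, with RAP1 (TERF2IP) bound to TRF2. TERT is silenced in most differentiated human cells and is expressed in pluripotent stem cells, which use it to keep telomere length over long culture.

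Libraries held 29788732 to 40587206 counts in KO and 28615751 to 47319933 in WT. Values in CPM below are counts scaled to TMM-adjusted library sizes of 1000000, and "called" means an adjusted p under 0.05 (edgeR quasi-likelihood, Benjamini-Hochberg over all 19163 genes tested). KCNH2 itself, the edited gene, held 11.15, 13.19, 13.16, 12.15 and 11.19 CPM in the KO libraries, against 14.88, 16.12, 14.66, 16.39 and 15.41 CPM in WT. It fell by 0.35 on the log2 scale (SE 0.061, edgeR adjusted p = 0.000648), and whole-gene counts do not check the loss of the protein. KO 3, WT 2 and WT 3 lay apart from the other libraries of their groups on the second principal component of log2 CPM, which held 28.3% of the variance. The labelled cell type held in both groups: the summed level of 12 pluripotency markers ran from 7491 to 7912 CPM in KO and from 6564 to 6911 CPM in WT, with 6 called higher and 1 lower, beside 21.9% and 24.1% of all tested genes. After the exon union correction for length and GC 5 were higher and 3 lower, and with the longest transcript 5 were higher and 0 lower. The 1 fall, LIN28B (log2 fold change -0.11, edgeR adjusted p = 0.0394), was not called without KO 3, KO 4, KO 5, WT 2, WT 3, WT 4 or WT 5. POU5F1 rose by 0.30, NANOG by 0.28, SALL4 by 0.14 and DPPA4 by 0.12 on the log2 scale (edgeR adjusted p = 0.000218, 0.00303, 0.00124 and 0.00257). SOX2, DNMT3B, PRDM14, ZFP42 and TDGF1 were not called. The largest part of the sums was POU5F1, with a mean of 3214 CPM in KO and 2617 CPM in WT. Of 16 markers of differentiated cells in the table, 12 stayed under 1 CPM in both groups. The 6 that could be tested summed to between 139.1 and 154.7 CPM in KO and between 185.7 and 202.6 CPM in WT. Of the 6, 0 were higher and 4 lower, beside 21.9% and 24.1% of all tested genes. The 4 lower were COL1A1 (log2 fold change -0.52), FOXA2 (-3.23), TUBB3 (-0.26) and POSTN (-0.66), the last at under 1 CPM and not called without KO 1, KO 2, WT 1, WT 2 or WT 4 (edgeR adjusted p from 0.0526 to 0.0614). Of 10 proliferation markers, 3 rose and 2 fell, beside 21.9% and 24.1% of all tested genes. PCNA stood at 0.28, CCNB1 at 0.16, AURKA at 0.16, MKI67 at -0.39 and TOP2A at -0.081 on the log2 scale. The sums over the 10 markers overlapped between KO (2250 to 2341 CPM) and WT (2250 to 2337 CPM). Without any single library but KO 4, 1 proliferation marker was called lower. CCNB1 and AURKA were not called once gene length and GC were corrected for (edgeR adjusted p = 0.478 and 0.0745 with exon union length). The part of these markers in the results below was not tested.

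Telomerase and shelterin genes moved little, and not as a block. TERT fell, NOP10, TERF1, ACD and RTEL1 rose, and DKC1, TERF2, POT1 and TINF2 were not called. That is 4 of 9 higher, where 21.9% of all tested genes were higher, and 1 of 9 lower, where 24.1% were lower. The count of 5 of 9 called in either direction stands beside 46.0% over all tested genes. The 5 KO and 5 WT libraries did not overlap for 3 of the 9 (TERT, NOP10 and ACD), beside 34.0% of tested genes. The median log2 fold change was 0.10 over the 9 and 0.0018 over all tested genes. A log2 fold change beyond 1 in size was seen in 0 of the 9 and in 3.54% of tested genes. The number of members called higher was 2 without WT 1 or without WT 5, 2 without KO 3, WT 2 and WT 3 together, 6 without KO 1, and 2 after either correction for gene length and GC. TERT was the single member called lower under all 20 alternatives.

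**Figure D1:**
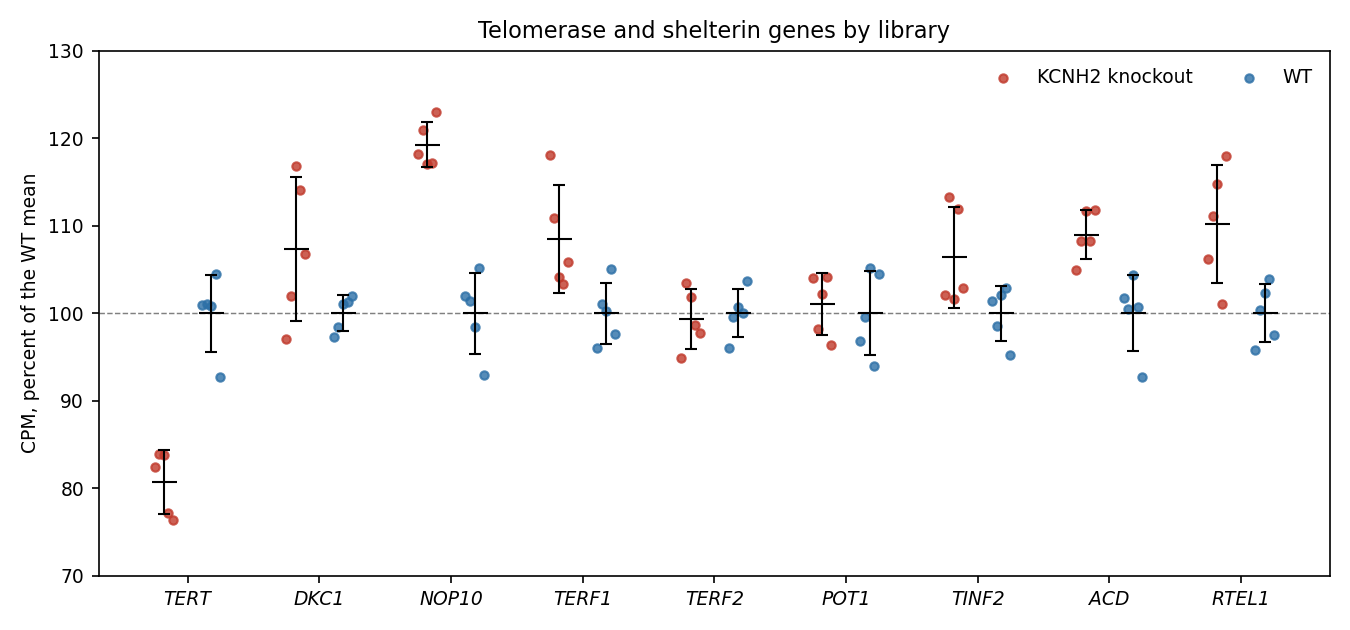
Level of each of the 9 genes in each library, as CPM in percent of the gene's WT mean, with KO in red left of WT in blue; the long bar is the mean and the whiskers are 1 SD over 5 libraries. TERT lies below the WT libraries in all 5 KO libraries, and NOP10 and ACD lie above them in all 5.

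TERT, the catalytic subunit (chromosome 5, 1253147 to 1295069, minus strand of GRCh38), was the member with the largest change. Its level was 24.16, 24.6, 24.54, 22.62 and 22.39 CPM in KO 1 to 5, against 29.58, 29.6, 29.56, 30.63 and 27.15 CPM in WT 1 to 5. The highest KO library lay below the lowest WT library. TERT averaged 23.7 ± 1.07 CPM in KO and 29.3 ± 1.29 CPM in WT (SD, n = 5 each). It fell by 0.31 on the log2 scale (SE 0.043, edgeR adjusted p = 0.000123), a fold of 0.807. It is larger in size than that of 67.2% of tested genes. These libraries hold bulk RNA, in which fewer cells that express a gene and less of its RNA per cell cannot be told apart. The fall was called under all 20 alternatives, with log2 fold changes from -0.33 to -0.26. Raw counts behind it were 719 to 888 in the KO libraries and 798 to 1432 in the WT libraries.

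DKC1 and NOP10 encode proteins of the H/ACA core that binds TERC and also guides pseudouridylation of ribosomal RNA. DKC1 (chromosome X, 154762742 to 154777689, plus strand) held 193.7, 203.6, 233.1, 227.6 and 213.0 CPM in KO 1 to 5, against 194.1, 196.5, 201.6, 202.1 and 203.6 CPM in WT 1 to 5. KO 1 lay under all WT libraries and the other 4 KO libraries at or above the highest of them, so the groups overlapped through KO 1. DKC1 was not called, with a log2 fold change of 0.10 (95% interval 0.0013 to 0.20, edgeR adjusted p = 0.0912). Without KO 1 it was 0.15 and was called (edgeR adjusted p = 0.0138). Its spread was wider in KO, at a coefficient of variation of 7.64% beside a median of 6.79% over genes of at least 1 CPM, than in WT, at 2.03% beside 4.93%. Whether the spreads differ was not tested.

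NOP10 (chromosome 15, 34341713 to 34343177, minus strand), the smallest of the genes with 554 bases of exon, was the member with the largest rise. It held 105.7, 108.1, 104.6, 104.8 and 110.0 CPM in the KO libraries, against 91.21, 90.65, 88.0, 94.04 and 83.11 CPM in WT. All KO libraries lay above all WT libraries. The mean was 106.6 ± 2.36 CPM in KO and 89.4 ± 4.12 CPM in WT (SD, n = 5 each). It rose by 0.25 on the log2 scale (SE 0.033, edgeR adjusted p = 8.5e-05). The call was lost when each library was corrected for gene length and GC, at 0.057 (edgeR adjusted p = 0.227) with exon union length and -0.022 (edgeR adjusted p = 0.594) with the longest transcript.

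Because these telomerase genes moved differently, with TERT lower, NOP10 higher and DKC1 not called, the 250 bases before their RefSeq starts (GRCh38.p14) are shown. Capitals mark the E-box CACGTG, a sequence that MYC and MAX bind, and the GC box GGGCGG or its complement CCGCCC, a sequence that SP1 binds. The windows lie on the minus strand of chromosome 5 from 1295069 to 1295318 for TERT, the plus strand of chromosome X from 154762614 to 154762863 for DKC1, and the minus strand of chromosome 15 from 34343137 to 34343386 for NOP10.
TERT: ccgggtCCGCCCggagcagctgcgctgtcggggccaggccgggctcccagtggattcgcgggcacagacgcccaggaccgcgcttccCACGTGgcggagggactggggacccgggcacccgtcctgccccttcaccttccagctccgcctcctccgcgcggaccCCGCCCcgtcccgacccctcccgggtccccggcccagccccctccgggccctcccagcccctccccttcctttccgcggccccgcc
DKC1: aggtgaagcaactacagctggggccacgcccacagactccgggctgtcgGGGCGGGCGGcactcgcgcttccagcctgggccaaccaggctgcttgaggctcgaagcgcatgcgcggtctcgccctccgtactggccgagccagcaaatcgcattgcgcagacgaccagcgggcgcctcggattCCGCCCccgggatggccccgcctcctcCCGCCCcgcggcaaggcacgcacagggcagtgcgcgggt
NOP10: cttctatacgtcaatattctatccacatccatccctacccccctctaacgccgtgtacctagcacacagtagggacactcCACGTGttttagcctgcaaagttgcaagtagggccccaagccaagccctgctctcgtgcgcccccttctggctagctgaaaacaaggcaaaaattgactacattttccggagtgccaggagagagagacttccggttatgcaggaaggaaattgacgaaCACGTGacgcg
Searched on both strands, TERT held 1 E-box and 2 GC boxes, DKC1 held 0 E-boxes and 4 GC boxes, of which 2 overlap, and NOP10 held 2 E-boxes and 0 GC boxes. Of 35116 RefSeq windows of the same length, 6.34% held an E-box and 42.6% a GC box. The gene spans given above for DKC1 and NOP10 begin inside their windows. The DKC1 GC boxes that begin 66 and 39 bases before the RefSeq start lie within its span. So does the NOP10 E-box that begins 11 bases before its RefSeq start. A match of letters is a description and not a site.

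Known regulators of TERT transcription showed few calls. Among 15 tested there were 2 rises and 2 falls, beside 21.9% and 24.1% of all genes, and 11 were not called. MYC, which binds E-boxes, measured 68.9 ± 11.9 CPM in KO and 68.0 ± 1.30 CPM in WT (SD, n = 5 each; edgeR adjusted p = 0.888). MYCN, its paralog, fell to 69.6 ± 6.72 CPM in KO, against 89.3 ± 5.51 CPM in WT (log2 fold change -0.36, edgeR adjusted p = 0.000739). KLF4 rose by 0.66, to 2.47 CPM in KO against 1.55 CPM in WT. SP3, a GC box binder, had a log2 fold change of -0.12 (edgeR adjusted p = 0.00622). It was not called after the exon union correction (edgeR adjusted p = 0.118) but was with the longest transcript (-0.068, edgeR adjusted p = 0.0271). GABPB1 had one of 0.20 (edgeR adjusted p = 0.0238), which was not called without KO 3, WT 1, WT 3 or WT 5 (edgeR adjusted p from 0.0516 to 0.0578) or without KO 3, WT 2 and WT 3 together (0.125). E2F1, SP1 and CTCF were not called, with log2 fold changes of 0.023, -0.076 and -0.012.

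TERT lies near the end of the short arm of chromosome 5, and its neighbours there are given as a list. Among 17 other tested genes of 5p15.33 there were 6 rises and 5 falls, beside 21.9% and 24.1% of all tested genes, and the median was 0.061 on the log2 scale. After either length correction there were 5 rises and 3 falls, and without KO 3, WT 2 and WT 3 there were 3 of each. NDUFS6, a complex I subunit gene, rose by 0.34 and MRPL36 by 0.22, while ZDHHC11 fell by 0.46 and SLC12A7, a potassium-chloride cotransporter gene, by 0.21 on the log2 scale. CLPTM1L, next to TERT, was not called and measured 93.2 ± 3.35 CPM in KO and 95.5 ± 2.63 CPM in WT (SD, n = 5 each). The rise of MRPL36 was lost after the length corrections (0.045 and -0.023, edgeR adjusted p = 0.423 and 0.679).

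TERC, the RNA subunit (chromosome 3, 169764520 to 169765060, minus strand), was close to the limit of detection. Its mature form carries no polyA tail, so a polyA library holds little of it. The KO libraries had 3, 0, 0, 5 and 0 counts and the WT libraries 11, 13, 11, 7 and 5. In KO 2, KO 3 and KO 5 a count of 0 leaves room for 3 counts, or between 0.0834 and 0.0854 CPM. The highest KO value, 0.127 CPM, lay below the lowest WT value, 0.170 CPM. TERC did not pass the filter on low counts. An annotated entry under the name RF00024 overlaps it. Whether that entry is a gene apart from TERC, and whether the overlap affected the counts of TERC, was not tested. With no filter the log2 fold change of TERC was -2.29 (SE 0.66, edgeR adjusted p = 0.0178 over 32152 genes), from 8 counts in KO and 47 in WT.

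Among 15 other tested genes of H/ACA particles and of telomerase assembly there were 7 rises and 3 falls, beside 21.9% and 24.1% of all tested genes. The median was 0.063 on the log2 scale. GAR1 and NHP2 complete the H/ACA core with DKC1 and NOP10. GAR1 rose to 51.5 ± 1.92 CPM in KO, against 43.7 ± 1.09 CPM in WT, and NHP2 to 179.9 ± 3.65 CPM in KO, against 158.4 ± 4.50 CPM in WT (SD, n = 5 each; edgeR adjusted p = 0.000131 and 0.000154). RUVBL2, an ATPase that helps assemble such particles, rose by 0.28, and its partner RUVBL1 by 0.14. ZCCHC8, a subunit of the nuclear exosome targeting complex, rose by 0.34 (edgeR adjusted p = 0.000232). Of the 3 falls, RBM7 stood at -0.19 and TEP1 at -0.16 on the log2 scale (edgeR adjusted p = 0.00241 and 0.00409). For both, the KO and WT libraries did not overlap. The longest transcript of TEP1 has 10695 bases. Among protein-coding genes of at least 1 CPM with transcripts from 7835 bases, the median log2 fold change was -0.14. After the length correction with the longest transcript 4 rose and 4 fell, and NHP2 stood at -0.043 and GAR1 at 0.038, not called. With exon union length 6 rose and 2 fell. GAR1 then stood at 0.096 and was called (edgeR adjusted p = 0.0329), and NHP2 stood at 0.019 and was not (edgeR adjusted p = 0.529).

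TERF1 and TERF2 are paralogs that bind double-stranded telomere repeats. TERF1 (chromosome 8, 73008864 to 73048122, plus strand) held 483.8, 454.2, 426.4, 423.4 and 433.7 CPM in KO 1 to 5, against 393.1, 414.0, 410.8, 430.4 and 399.7 CPM in WT 1 to 5. WT 4 lay above 2 KO libraries, and the other 4 WT libraries below all of KO. TERF1 averaged 444.3 ± 25.1 CPM in KO and 409.6 ± 14.4 CPM in WT (SD, n = 5 each), a rise of 0.12 on the log2 scale (SE 0.040, edgeR adjusted p = 0.0298). It was not called without KO 2, WT 1, WT 3 or WT 5 (edgeR adjusted p = 0.0604, 0.0711, 0.0517 and 0.0685), and its log2 fold change was 0.20 after correction with exon union length. TERF2 (chromosome 16, 69355561 to 69408571, minus strand) held 33.43 to 36.45 CPM in KO and 33.85 to 36.54 CPM in WT, ranges that overlap almost wholly. Its log2 fold change was -0.0094 (95% interval -0.083 to 0.064, edgeR adjusted p = 0.84).

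Part of the reads from TERF1 may have been counted at its processed pseudogenes. The 5 pseudogenes named after TERF1 took 8.29%, 7.02%, 2.40%, 6.96% and 7.14% of the counts of TERF1 and these copies in KO 1 to 5, against 6.98%, 2.89%, 1.73%, 7.98% and 7.30% in WT 1 to 5. The share was low in KO 3, WT 2 and WT 3, the libraries that stood apart on the second component, and high in the other 7. TERF1 and its copies summed to 475.0 ± 34.8 CPM in KO and 433.2 ± 19.9 CPM in WT (SD, n = 5 each). Without KO 3, WT 2 and WT 3 the log2 fold change of TERF1 was 0.14 (edgeR adjusted p = 0.0488).

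**Figure D2:**
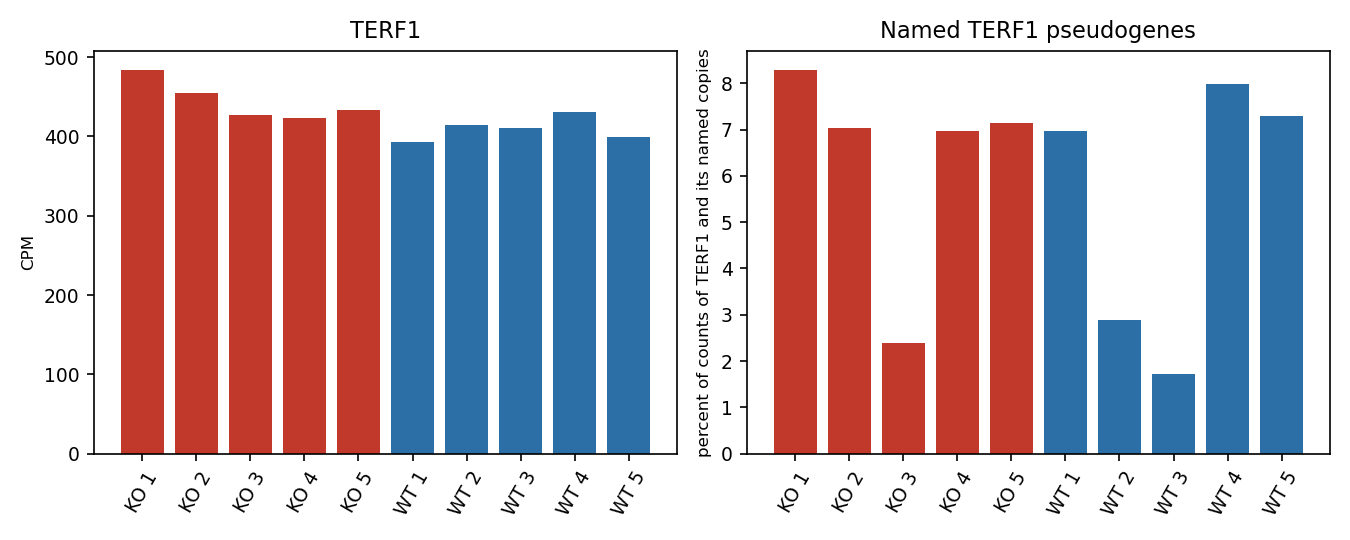
Left, TERF1 in CPM in each library; right, counts of its 5 named pseudogenes in percent of all counts of TERF1 and these copies, with KO in red left of WT in blue. The share lies between 1.73% and 2.89% in KO 3, WT 2 and WT 3 and between 6.96% and 8.29% in the other 7 libraries.

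TINF2, ACD and POT1 carry the chain from the double-strand binders to the single-stranded overhang, and ACD also recruits telomerase. ACD (chromosome 16, 67657512 to 67660815, minus strand) held 40.35, 41.6, 42.92, 41.63 and 42.98 CPM in KO, against 39.12, 38.63, 40.11, 38.71 and 35.65 CPM in WT. The groups did not overlap, though the lowest KO library and the highest WT library differed by under 1 CPM. It rose by 0.12 on the log2 scale (SE 0.036, edgeR adjusted p = 0.0139). It was not called after either length correction (edgeR adjusted p = 0.111 and 0.0664) or without KO 3, WT 2 and WT 3 (0.0506). CARMIL2 overlaps the ACD span on the opposite strand and measured 40.0 CPM in KO and 46.1 CPM in WT. It was called lower (log2 fold change -0.21, edgeR adjusted p = 0.00294). How reads from the shared stretch were counted is not known, and their part in the level of ACD was not tested.

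TINF2 (chromosome 14, 24239643 to 24242674, minus strand) held 27.62, 30.66, 27.5, 30.29 and 27.83 CPM in KO, against 27.43, 26.66, 27.61, 27.82 and 25.75 CPM in WT. KO 2 and KO 4 stood above all other libraries and the rest overlapped. It was not called (log2 fold change 0.089, 95% interval -0.0026 to 0.18, edgeR adjusted p = 0.104). Without KO 1 it was 0.12 and was called (edgeR adjusted p = 0.0391). POT1 (chromosome 7, 124822386 to 124929983, minus strand) ranged from 26.43 to 28.56 CPM in KO and from 25.77 to 28.83 CPM in WT, with the KO range inside the WT range. It was not called (log2 fold change 0.014, 95% interval -0.075 to 0.10, edgeR adjusted p = 0.797).

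Of the shelterin and CST genes outside the 9, TERF2IP rose and CTC1 fell. TERF2IP, which encodes RAP1, measured 25.8 ± 2.77 CPM in KO and 21.4 ± 0.73 CPM in WT (SD, n = 5 each; log2 fold change 0.27, edgeR adjusted p = 0.00534). CST is a complex that binds the single strand and ends extension by telomerase. Its subunit gene CTC1 measured 28.6 ± 1.502 CPM in KO and 33.7 ± 1.11 CPM in WT (SD, n = 5 each; log2 fold change -0.24, edgeR adjusted p = 0.00066), and it was not called after the correction with the longest transcript (edgeR adjusted p = 0.119). The other CST genes STN1 and TEN1 were not called, with log2 fold changes of 0.10 and 0.049.

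RTEL1 is a helicase that unwinds telomere loops and secondary structures before replication. RTEL1 (chromosome 20, 63657810 to 63696253, plus strand) held 32.83, 34.34, 35.47, 31.23 and 36.46 CPM in KO 1 to 5, against 29.63, 31.04, 31.63, 32.14 and 30.14 CPM in WT 1 to 5. All KO libraries but KO 4 lay above every WT library. It rose by 0.14 on the log2 scale (SE 0.045, edgeR adjusted p = 0.0233), and by 0.20 and 0.22 after the length corrections, where it stayed called. It was not called without KO 3, KO 5, WT 1 or WT 5 (edgeR adjusted p = 0.0514, 0.0586, 0.0571 and 0.0543) or without KO 3, WT 2 and WT 3 together (0.096). The readthrough gene RTEL1-TNFRSF6B overlaps it on the same strand and could share its reads. That gene measured 14.5 CPM in KO and 15.1 CPM in WT and was not called (log2 fold change -0.062, edgeR adjusted p = 0.496).

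Fold changes in this comparison followed transcript length. Among protein-coding genes of at least 1 CPM in the mean, the 1344 with the shortest transcripts, up to 1669 bases, had a median log2 fold change of 0.21, and the 1344 with the longest, from 7835 bases, one of -0.14. NOP10 lay in the shortest bin, close to its median. TERT lay in the bin of 3756 to 4357 bases, where the median was -0.015, and RTEL1 in that of 4358 to 5090 bases, where it was -0.046. After correction for length and GC, TERT stood at -0.29 with exon union length and -0.26 with the longest transcript (edgeR adjusted p = 0.000158 and 0.000394). TERF1 and RTEL1 were then the 2 members called higher.

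**Figure D3:**
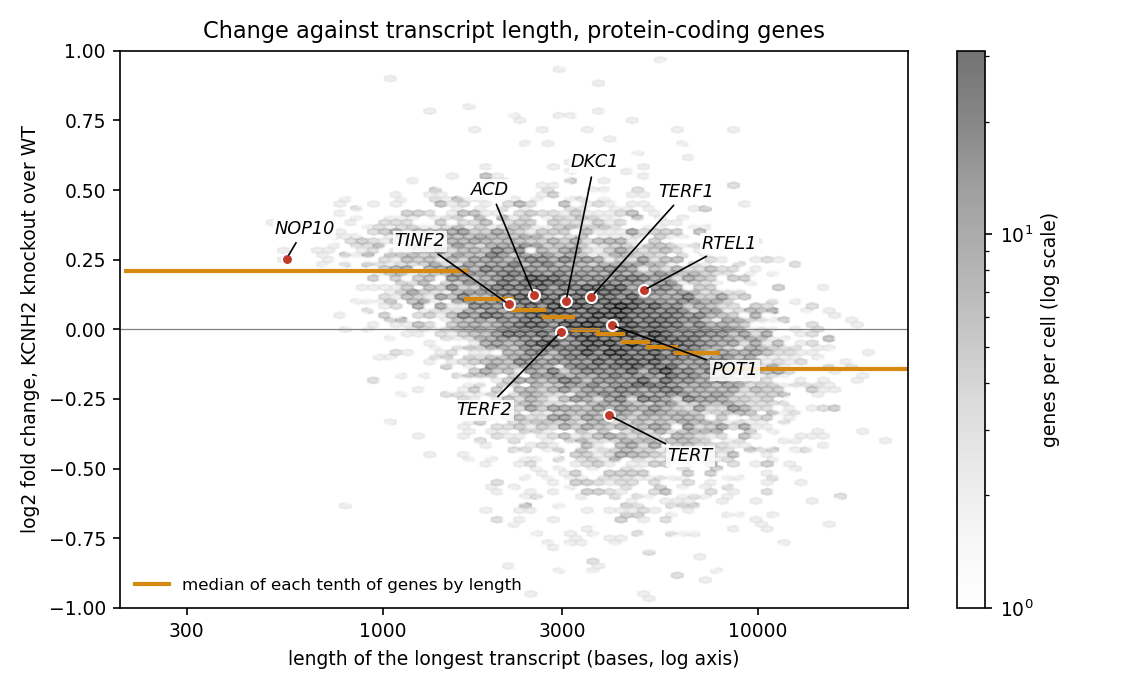
Log2 fold change of KO over WT against the length of the longest transcript on a log axis, for protein-coding genes of at least 1 CPM; grey cells count genes, those beyond 1 in either direction are not drawn, orange lines are medians of 10 bins of genes by length. The medians run from 0.21 in the shortest bin to -0.14 in the longest, with NOP10 near the first and TERT below the line at its length.

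**Figure D4:**
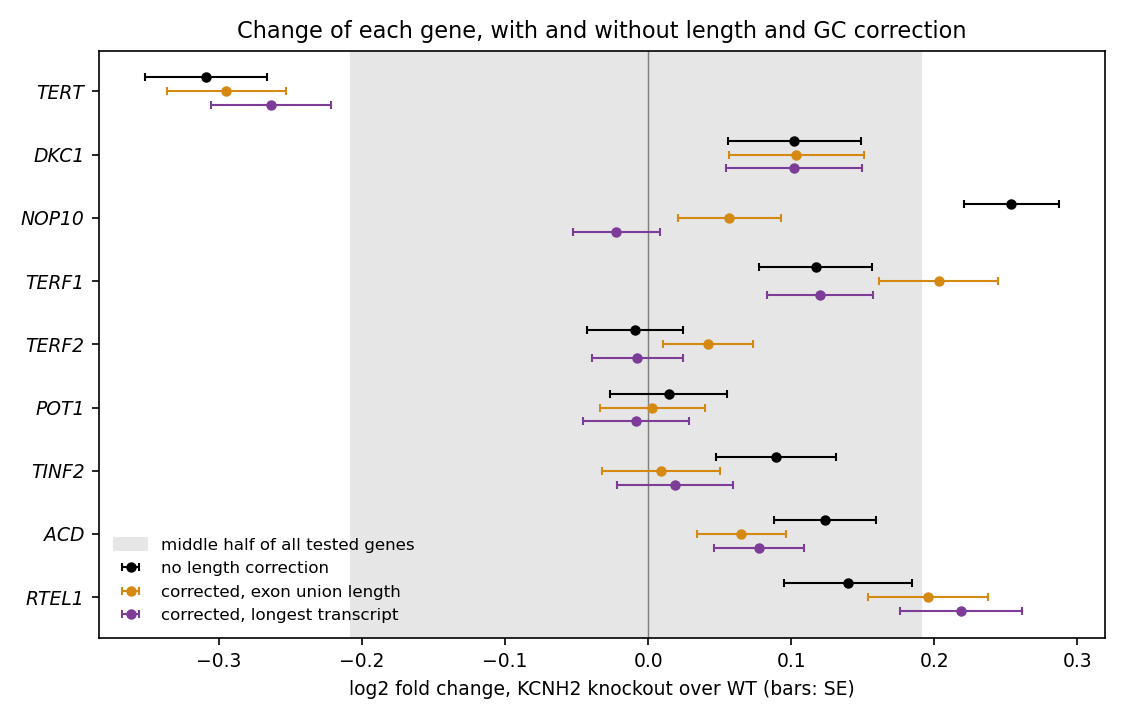
Log2 fold change of KO over WT for each of the 9 genes with bars of 1 SE, without correction (black) and after correction for length and GC with exon union length (orange) or the longest transcript (purple); the grey band runs between the quartiles of all tested genes, from -0.21 to 0.19. TERT lies below the band under all 3, while NOP10 lies at 0.25 without correction and at 0.057 and -0.022 with it.

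With exon union length, levels per length placed NOP10 first and POT1 last in both groups. In CPM per kilobase of exon union, NOP10 stood at 192.5 ± 4.26 in KO and 161.4 ± 7.44 in WT (SD, n = 5 each). DKC1 followed at 51.0 in KO and 47.5 in WT, and TERF1 at 50.3 in KO and 46.4 in WT, with ranges over libraries that overlapped in each group. ACD stood at 13.0 in KO and 11.9 in WT, and TINF2 at 10.6 in KO and 9.98 in WT, without overlap between these neighbours. TERT was eighth of 9 in KO, at 5.14 ± 0.23, and sixth in WT, at 6.37 ± 0.28. In KO it overlapped RTEL1 (5.29) and in WT it overlapped TERF2 (6.27). TERF2 stood at 6.23 and POT1 at 4.70 in KO, where POT1 did not overlap TERT above it. In WT, RTEL1 stood at 4.801 and overlapped POT1 at 4.65. With the length of the longest transcript, TERF1 lay above DKC1, POT1 was eighth in both groups, TERT was last in KO and seventh in WT, and RTEL1 was last in WT.

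Ratios within a library do not depend on library scaling, though they do depend on a correction for gene length and GC, and 4 ratios between partner genes were compared by an exact two-sided permutation test, with adjustment over the 4. With 5 against 5 libraries the smallest possible p is 0.00794. The log2 ratio of TERT to DKC1 was -3.00, -3.05, -3.24, -3.33 and -3.25 in KO, against -2.71, -2.73, -2.77, -2.72 and -2.90 in WT. The groups did not overlap, and the difference of -0.41 had an exact p of 0.00794, the smallest possible (adjusted 0.0317). The log2 ratio of TERF1 to TERF2 averaged 3.66 ± 0.11 in KO and 3.54 ± 0.057 in WT (SD, n = 5 each), a difference of 0.13 (exact permutation p = 0.0238, adjusted 0.0476). All 5 KO libraries lay above the WT mean, but the groups overlapped, and without KO 1 the difference was 0.079. For NOP10 to DKC1 the difference was 0.16 (exact permutation p = 0.0794, adjusted 0.0952), higher than the WT mean in 5 of 5 KO libraries. After the corrections for length and GC, NOP10 had the smaller log2 fold change of the pair, at 0.057 and -0.022 beside 0.10 and 0.10 for DKC1, the opposite order to that without correction. For POT1 to ACD it was -0.11 (exact permutation p = 0.0952, adjusted 0.0952), above the WT mean in 0 of 5 KO libraries. Neither of these passed the threshold.

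**Figure D5:**
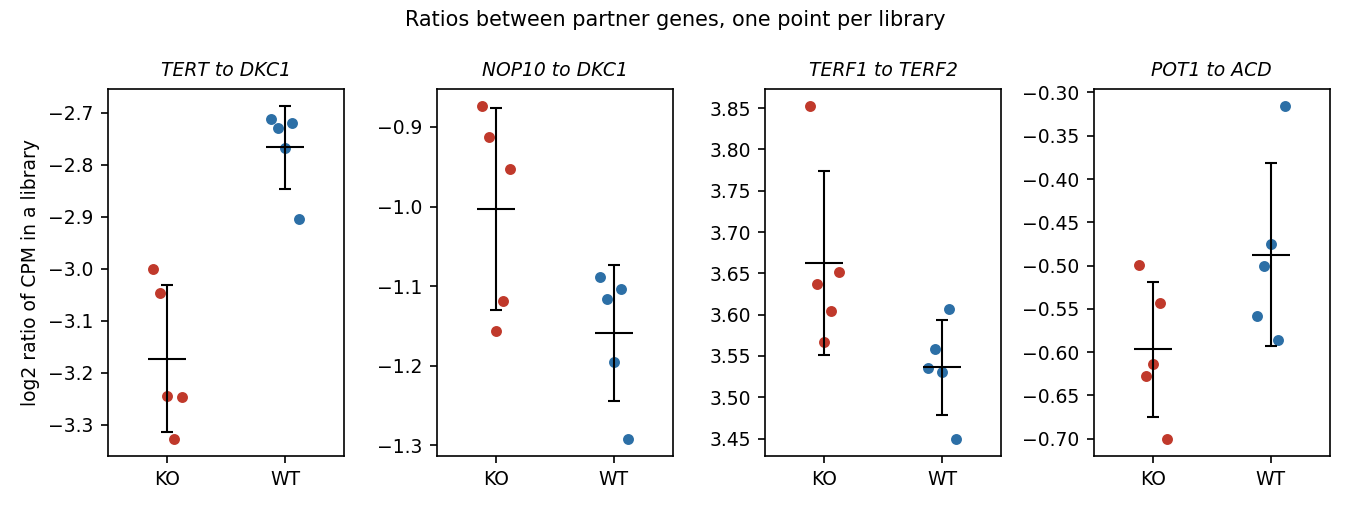
Log2 ratio of CPM between partner genes in each library, with KO in red left of WT in blue; the long bar is the mean and the whiskers are 1 SD over 5 libraries, and each panel has its own axis. TERT to DKC1 is separated by group, from -3.33 to -3.00 in KO and from -2.90 to -2.71 in WT, while the other 3 ratios overlap.

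Among 20 tested genes that act on telomere replication and end processing there were 4 rises and 6 falls, beside 21.9% and 24.1% of all tested genes, shares close to that background. The median was -0.032 on the log2 scale. The rises numbered 2 without KO 4, without WT 3, or without KO 3, WT 2 and WT 3 together. XRCC5, which encodes the Ku80 subunit that binds DNA ends, rose to 795.7 ± 15.0 CPM in KO, against 714.4 ± 16.9 CPM in WT, and XRCC6, its Ku70 partner, rose by 0.097. SLX4, a nuclease scaffold that shelterin recruits, fell by 0.28 (edgeR adjusted p = 0.000376). RIF1 and RAD50 fell by 0.21 and 0.13, and both were no longer called after the length corrections (edgeR adjusted p = 0.0533 and 0.107 with exon union length). RAD50 was not called without KO 3, WT 2 and WT 3 either (edgeR adjusted p = 0.0791). Among the tankyrases, which release TRF1 from telomeres, TNKS fell by 0.17 and TNKS2 was not called at -0.10. The longest transcript of TNKS has 9620 bases. The median log2 fold change of protein-coding genes of at least 1 CPM with transcripts from 7835 bases was -0.14. After either length correction 3 genes of the list were lower.

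Of 10 tested genes of telomere chromatin and of alternative lengthening, a recombination pathway used by some cells without telomerase, 5 rose and 3 fell, beside 21.9% and 24.1% of all tested genes. HNRNPA1, which binds telomere repeats in RNA and DNA, rose to 4124 ± 130.8 CPM in KO, against 3391 ± 47.9 CPM in WT (log2 fold change 0.28, edgeR adjusted p = 7.14e-06). ASF1A, a histone chaperone gene, rose by 0.27. ATRX, a chromatin remodeller lost in many cells that lengthen telomeres by recombination, had a log2 fold change of -0.18 and its partner DAXX one of 0.14. NR2C2, an orphan receptor gene, fell by 0.16. ATRX and NR2C2 were not called after the length corrections (edgeR adjusted p = 0.0942 and 0.204 with exon union length), and with it 5 of the list rose and 0 fell. Without KO 3, WT 2 and WT 3 the list held 3 rises and 3 falls. ZSCAN4, a telomere lengthening gene of the early embryo, and NR2F2 stayed under 1 CPM in both groups.

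The profiles most like that of TERT over the 10 libraries, by root mean square difference of log2 CPM after subtracting each gene's mean, were FBLN1 (0.037), CREBZF (0.039), PCF11 (0.040), MAATS1 (0.041) and EPHA1 (0.042). The median over 15822 genes was 0.21. Each had a log2 fold change between -0.28 and -0.34, beside -0.31 for TERT. The match uses the libraries of both groups, so fold changes near that of TERT follow from the choice of genes. The nearest to the other members were EIF3A for DKC1, APOO for NOP10, KEAP1 for TERF1, TMEM201 for TERF2, C16orf72 for POT1, TLE4 for TINF2, PSME1 for ACD and DIPK1B for RTEL1, at differences from 0.015 to 0.034.

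The authors' deposited table gives TERT a log2 fold change of -0.29 and NOP10 one of 0.26, with adjusted p-values of 1.21e-07 and 4.33e-12. In the authors' deposited table TERF1, ACD and RTEL1 stand at 0.13, 0.13 and 0.15 with adjusted p-values of 0.00716, 0.008 and 0.0165, and DKC1 at 0.11 with 0.0605. None of the 9 carries the call mark YES in the authors' deposited table, TERT and NOP10 included. The mark therefore does not stand for an adjusted p under 0.05 alone.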

How the data were processed

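The authors deposited raw counts per gene, not normalized, for the 10 polyA libraries (150 paired-end cycles). Per the submitters' processing notes, hg38, DESeq2 and R 3.6.3 were used. No aligner, counter, annotation or strand setting is given in the sources used here. Per the file headers, the authors' KO against WT table gives each gene a mean normalised signal, a log2 fold change and its error (both log2), a test score, and raw and adjusted p-values. It supplied symbols and the values credited to it.

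Groups and replicate numbers follow the sample titles. The main test was edgeR 4.0.16 (R 4.3.3): quasi-likelihood fit on group, TMM, filterByExpr, Benjamini-Hochberg adjustment, threshold 0.05. Log2 CPM for components, profiles and ratios used TMM scaling and a prior count of 2. Each 95% interval is the log2 fold change plus or minus a t quantile times its standard error. GENCODE 29 (GRCh38) gave positions and lengths, and RefSeq the promoter windows. Ratios used exact permutation in scipy 1.17.1 (Python 3.11.15). For the length correction, each library's log2 CPM was regressed on length and GC by splines of 5 degrees of freedom and the trend became an offset. Of tested genes 98.9% had both properties. The alternatives also included DESeq2 size factors, its Wald test (DESeq2 1.42.0), voom (limma 3.58.1), other low-count filters, a replicate block and left-out libraries. The main fit, DESeq2 size factors, the Wald test, voom, the replicate block and the exon union correction were also run on simulated counts. Those counts held no trend with length or GC that differed between groups. The other alternatives were not run on simulated counts.

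Members, lists, tests and alternatives were chosen with earlier results of these data known. Genes named are KCNH2, the 9 members, up to 4 of each list by smallest p, overlapping genes and nearest profiles. RUVBL1, RBM7, TEP1, XRCC6, TNKS, TNKS2, DAXX, TOP2A, MYC, E2F1, SP1, CTCF, CLPTM1L, ZSCAN4, NR2F2, LIN28B, SOX2, DNMT3B, PRDM14, ZFP42 and TDGF1 were named after their values were seen.

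Libraries within a group differed by more than sampling noise (chi-square per degree of freedom from 3.59 to 26.2), so none was treated as a library deposited again, which does not show separate cultures. Limits from counts of 0 cover counting error only.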

Additional observations from a re-analysis of the deposited data

Results flagged for a closer look

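In 100 groups of 5 libraries checked, 6 held a library whose gap to the nearest of the others was large against the range of the group, where chance gives about 1 in 20. In WT, the log2 ratio of TERT to DKC1 was -2.90 in WT 5, against -2.77 to -2.71 in the other 4 libraries. XRCC5 was 684.7 CPM in WT 1, against 718.7 to 726.9 CPM in the other WT libraries. In WT 4, SLC12A7 was 66.9 CPM (61.9 to 62.3 CPM in the others), NANOG 66.1 CPM (72.5 to 73.6 CPM) and AURKA 93.4 CPM (up to 99.7 CPM). PCNA was 285.4 CPM in KO 4, against 291.6 to 294.1 CPM in the other KO libraries. None of the 9 members was marked in CPM.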

How the results depend on the processing

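TERT kept its direction and its call under all 20 alternatives. Members called higher numbered 4, and 2 after each length and GC correction, 2 with the replicate block and that correction together, and 2 without KO 3, WT 2 and WT 3. Leaving out 1 library gave 2 to 6 higher and 1 lower. The cause was not tested. The replicate numbers do not pair the libraries: same-numbered libraries correlated from -0.16 to 0.70 in their deviations, and 1 of 5 matched its own number best. With the replicate block, 3 members rose and 1 fell, TERF1 missed the threshold (edgeR adjusted p = 0.0578), and all calls numbered 8558 beside 8816. With pairs, an exact sign-flip test of the ratio differences gave p = 0.0625, the smallest possible, for TERT to DKC1 (-0.41) and p = 0.125 for TERF1 to TERF2 (0.13), each adjusted to 0.167. Leaving out 1 library gave -0.45 to -0.37 and 0.079 to 0.15, where the smallest possible p is 0.0159 and adjustment over 4 takes a single such p past 0.05, so calls there say nothing of stability. Over all 9 lists, 27 genes fell, 16 with the block and length correction together, and 23 to 26 when 1 library was left out.

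Some genes changed sign, all of them not called where they did. TERF2 stood at 0.00080 with DESeq2 size factors, 0.0020 with the DESeq2 Wald test, 0.042 with the exon union correction (0.042 with the block too), and from -0.024 to 0.019 with 1 library left out. POT1 stood at -0.0085 with the longest transcript and from -0.0066 to 0.034 with 1 library left out, and NOP10 at -0.022 with that length. With the exon union, with the block added, and with the longest transcript, STN1 was -0.052, -0.051 and -0.056 and TEN1 -0.13, -0.13 and -0.17. TEN1 ran from -0.0079 to 0.11 with 1 library left out. NHP2 (-0.043) and MRPL36 (-0.023) turned with the longest transcript. With that length, levels in CPM per kilobase over all 10 libraries were 6.59 for TERT, 67.2 for DKC1, 118.7 for TERF1, 11.8 for TERF2, 6.75 for POT1, 12.9 for TINF2, 15.9 for ACD and 6.56 for RTEL1. Low counts limit TERC, with 0 counts in KO 2, KO 3 and KO 5. These were not the shallowest libraries, at 36151390 to 37465295 counts in all, beside 28615751 in WT 5, where TERC had 5.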
